A study of Mus musculus with 7 samples.

Results

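Triacylglycerol and most phospholipids of the liver are built on glycerol-3-phosphate. Glycerol-3-phosphate acyltransferases (GPATs) add the first fatty acid and make lysophosphatidic acid, and acylglycerolphosphate acyltransferases (AGPATs) add the second and make phosphatidic acid. Lipins then remove the phosphate, which gives the diacylglycerol used for triacylglycerol, phosphatidylcholine and phosphatidylethanolamine, while phosphatidic acid that is not dephosphorylated feeds cardiolipin and phosphatidylinositol. Described here are 10 genes of these 3 steps: the GPAT genes Gpam, Gpat2, Gpat3 and Gpat4, the AGPAT genes Agpat1, Agpat2 and Agpat3, and the lipin genes Lpin1, Lpin2 and Lpin3. They were chosen by symbol, with earlier results of these data known. Each of the 10 was read by 1 probe set that is annotated to no other gene, among 19933 genes measured in all.

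The study used RNA of whole liver from C57BL/6 male mice aged 4 months that were kept on normal chow with a normal light and dark cycle. Mice of the knockout group (3 arrays) had received AAV-Cre, an adeno-associated virus for Cre recombinase, and carry the genotype label HDAC3 knockout. Mice of the rescued group (4 arrays) had received AAV-Cre together with AAV-Flag-HDAC3, which encodes wild-type HDAC3, and carry the label HDAC3 rescued wild-type. All livers were taken at 5 pm (ZT10), 2 weeks after injection, from mice fed ad libitum, so every animal of both groups had been given Cre and none was untreated. The labels do not name the Hdac3 allele, the promoter that drives Cre or the share of hepatocytes reached, and the rescued animals received an additional vector that the knockout animals did not.

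Levels are log2 intensities on Affymetrix Mouse Gene 1.0ST arrays, summarised by mean ± SD. A difference is the knockout mean less the rescued mean, in log2 units. A gene was called when its p in limma's moderated test, adjusted by Benjamini-Hochberg over all 19933 genes, was under 0.05. Array medians ran from 105.01 to 110.85 intensity units in the knockout group and from 96.29 to 102.33 in the rescued group, so every knockout array was brighter as a whole. The median difference over all genes was therefore 0.09 as deposited, 0.0035 once arrays were quantile normalized, -0.025 with median centring and 2.7e-05 with cyclic loess. Of all genes, 9.54% were called higher and 4.85% lower as deposited, against 4.09% and 5.75% after cyclic loess, 4.22% and 5.76% after quantile normalization and 2.59% and 10.9% after median centring. Hdac3, the targeted gene, was at 8.92 ± 0.16 (SD, n = 3) in the knockout group against 9.40 ± 0.13 (SD, n = 4), a difference of -0.48 (SE 0.10, adjusted p = 0.0124 in limma's test). Neither the deleted part of the gene nor the reading of the rescue vector by this probe set is stated in the labels. None of 6 bright hepatocyte markers was called in limma's test (0 had a p under 0.05 before adjustment). As a measure of background, levels are also given as percentiles (knockout, then rescued) among 1194 genes not expected in liver, those of olfactory and vomeronasal receptors.

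Of the 10 genes, 4 were higher in the knockout livers and none was lower: the GPAT genes Gpam and Gpat3 and the AGPAT genes Agpat2 and Agpat3. Over all genes 14.4% were called in either direction. No lipin gene was called. Before adjustment, limma's p was under 0.05 for 2 of the 3 lipins and for 8 of the 10 genes, against 35.7% of all genes. The median difference of the 10 genes was 0.27, beside 0.09 for all genes, and 0.23 beside 2.7e-05 after cyclic loess. The knockout values lay above all rescued values for 6 of the 10 genes, where the groups did not overlap for 29.6% of all genes, and did so with knockout higher for 21.0%. Quantile normalization left 4 of the 10 called, all higher (9.98% of all genes called), and 5 without overlap, all higher (24.6% of all genes, 11.1% with knockout higher). With cyclic loess there were also 4 called, all higher (9.84% of all genes), and 5 without overlap, all higher (24.6%, and 10.8% with knockout higher). With median centring 3 were called, all higher (13.5%), and 4 did not overlap, 3 of them higher (27.3%, and 7.51% with knockout higher). Because the 10 genes were chosen with earlier results of these data known, these shares describe them and are no independent test. In RNA of whole tissue, fewer cells of a type and less RNA per cell cannot be told apart.

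**Figure D1:**
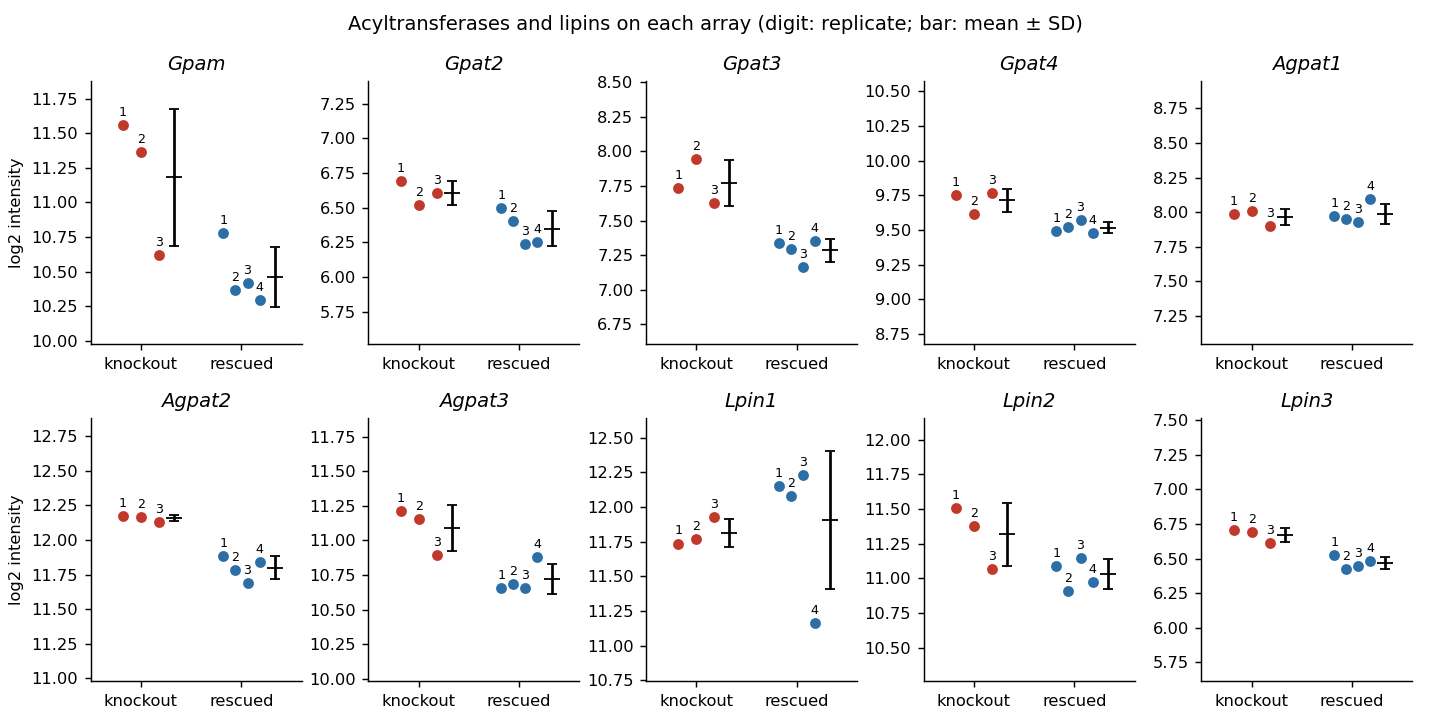
Log2 intensity of the 10 genes on each array (y axis; every panel spans the same log2 range), with knockout arrays in red, rescued arrays in blue, the replicate number above each point and a black bar for the mean ± SD. Agpat2 and Gpat3 are separated between the groups, Gpam overlaps because knockout replicate 3 is low, and Lpin1 on rescued replicate 4 lies far below the other rescued arrays.

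RefSeq promoter windows of assembly GRCm38.p6 were matched for 9 of the 10 genes, with 14 windows in all. The first start is here the most upstream start with a window, and it can lie inside the annotated span of the gene. Stretches before the first start of Gpam and Agpat2 are shown because both genes were higher in the knockout livers. These bases lie outside the annotated span of the gene. For Gpam they are 169 of the 250 bases of the window, and the bases nearest the start are not printed. Capitals mark a GC box (GGGCGG, either strand, overlapping copies joined), the only searched motif found in the printed bases. The Gpam stretch is chr19:55127320-55127488 and the Agpat2 stretch chr2:26604418-26604667, both on the minus strand and written 5′ to 3′.
Gpam: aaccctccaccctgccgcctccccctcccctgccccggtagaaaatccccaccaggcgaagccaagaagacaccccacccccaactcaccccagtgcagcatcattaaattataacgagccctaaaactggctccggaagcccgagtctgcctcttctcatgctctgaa
Agpat2: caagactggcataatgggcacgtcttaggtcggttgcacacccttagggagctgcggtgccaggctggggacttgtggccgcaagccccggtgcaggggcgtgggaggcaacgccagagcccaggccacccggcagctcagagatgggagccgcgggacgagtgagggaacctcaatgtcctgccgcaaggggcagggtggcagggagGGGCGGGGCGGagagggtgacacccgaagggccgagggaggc

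In the 250 bases before the first start, the GC box was found in 4 of the 9 genes (Gpat3, Agpat1, Agpat2 and Lpin2), and it occurs in 32.7% of all 32851 windows of that length. The CCAAT box (CCAAT) was found in 3 (Gpam, Gpat2 and Agpat1; 33.8% of all windows), in Gpam within bases that are not printed. The E-box (CACGTG) was found in 1, Lpin2 (6.02% of all windows), and the core nuclear receptor site (AGGTCA) in 1, Lpin1 (14.0%). The SREBP site core (TCACNCCAC) and the direct repeat DR1, which contains the core nuclear receptor site, were found in none of the 9 and occur in 1.05% and 0.0335% of all windows. All motifs were searched on both strands, and a match describes letters in a window. Before the first start of the 4 called genes, Gpat3 and Agpat2 held a GC box, Gpam a CCAAT box and Agpat3 none of the motifs. The windows of Gpat3 and Agpat3, and the bases of Gpam that hold its CCAAT box, lie inside the annotated span of the gene. The window of the second Gpam start held a GC box and a core nuclear receptor site.

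Among the GPATs, which catalyse the first step, Gpam encodes the mitochondrial outer membrane enzyme that is prominent in liver. Its log2 intensity was 11.56, 11.37 and 10.62 in the 3 knockout livers and 10.78, 10.36, 10.42 and 10.29 in the 4 rescued livers. Knockout replicates 1 and 2 lay above every rescued value, whereas knockout replicate 3 lay below rescued replicate 1, so the groups overlapped. The means were 11.18 ± 0.49 (SD, n = 3) and 10.46 ± 0.22 (SD, n = 4), a difference of 0.72 (SE 0.19, 95% interval 0.30 to 1.14), or 1.65-fold higher, with adjusted p = 0.0343 in limma's test. This is the largest difference among the 10 genes and also the one with the widest knockout spread. With single arrays left out it ranged from 0.53 without knockout replicate 1 to 1.00 without knockout replicate 3, and the call was kept only without knockout replicate 3 or rescued replicate 1, with adjusted p from 0.00432 to 0.141 over the 7 fits.

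Gpat3, which encodes a GPAT of the endoplasmic reticulum, was at 7.74, 7.95 and 7.62 in knockout and 7.34, 7.29, 7.17 and 7.35 in rescued livers. All knockout values lay above all rescued values, with a gap larger than the range of the rescued arrays. Its means were 7.77 ± 0.16 (SD, n = 3) and 7.29 ± 0.08 (SD, n = 4), and the difference of 0.48 (SE 0.09, 95% interval 0.29 to 0.67), or 1.40-fold, had adjusted p = 0.00811, the smallest p of the 10 genes in limma's test. The call held in the 3 rescalings (0.37 to 0.47) and without each array in turn (0.39 to 0.56).

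Gpat4 encodes the other GPAT of the endoplasmic reticulum. It was at 9.75, 9.62 and 9.77 in knockout and 9.49, 9.52, 9.57 and 9.48 in rescued livers, which do not overlap but nearly touch. The difference of 0.20 (SE 0.07) was not called (adjusted p = 0.0695 in limma's test) and was 0.08 after median centring. Gpat2, a mitochondrial family member best known from testis, was at 6.69, 6.52 and 6.61 against 6.50, 6.40, 6.23 and 6.25, a difference of 0.26 (SE 0.08) with adjusted p = 0.0582 in limma's test. That difference was 0.13 after cyclic loess (adjusted p = 0.268), and the groups then overlapped, while without rescued replicate 1 it was 0.31 and was called (adjusted p = 0.0345). Its levels lay at percentiles 97.5 and 97.0 of the receptor genes in the 2 groups, so they are within the range of genes not expected in liver.

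At the second step, Agpat2 encodes the lysophosphatidic acid acyltransferase of the endoplasmic reticulum whose loss in humans causes generalized lipodystrophy. Its values were 12.18, 12.16 and 12.13 in knockout and 11.88, 11.78, 11.69 and 11.84 in rescued livers. The knockout arrays lay within a narrow band above every rescued array. The means were 12.16 ± 0.02 (SD, n = 3) and 11.80 ± 0.08 (SD, n = 4), a difference of 0.36 (SE 0.07, 95% interval 0.21 to 0.51), or 1.28-fold higher, with adjusted p = 0.0109 in limma's test. The call held in the 3 rescalings (0.24 to 0.31) and with each array left out (0.32 to 0.39).

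Agpat3, which encodes a lysophospholipid acyltransferase of the endoplasmic reticulum and Golgi, was at 11.21, 11.15 and 10.90 in knockout and 10.66, 10.68, 10.66 and 10.88 in rescued livers. The groups did not overlap, but knockout replicate 3 and rescued replicate 4 nearly met. The means were 11.09 ± 0.17 (SD, n = 3) and 10.72 ± 0.11 (SD, n = 4), 1.29-fold higher in knockout, with a difference of 0.37 (SE 0.09, 95% interval 0.17 to 0.57) and adjusted p = 0.0278 in limma's test. After median centring the difference was 0.25 with adjusted p = 0.0783, and leaving out any one of knockout replicates 1 and 2 and rescued replicates 2 and 3 also ended the call (differences of 0.30 to 0.36).

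Agpat1, the widely expressed enzyme of the endoplasmic reticulum, was at 7.99, 8.01 and 7.90 in knockout and 7.97, 7.95, 7.93 and 8.09 in rescued livers. Its values were mixed between the groups, with a difference of -0.02 (SE 0.07), adjusted p = 0.835 in limma's test and a 95% interval from -0.17 to 0.13. After median centring the difference was -0.14, and the knockout values then all lay below the rescued ones (adjusted p = 0.215). Among the 7 fits that left out 1 array the difference ran from -0.04 to 0.01.

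**Figure D2:**
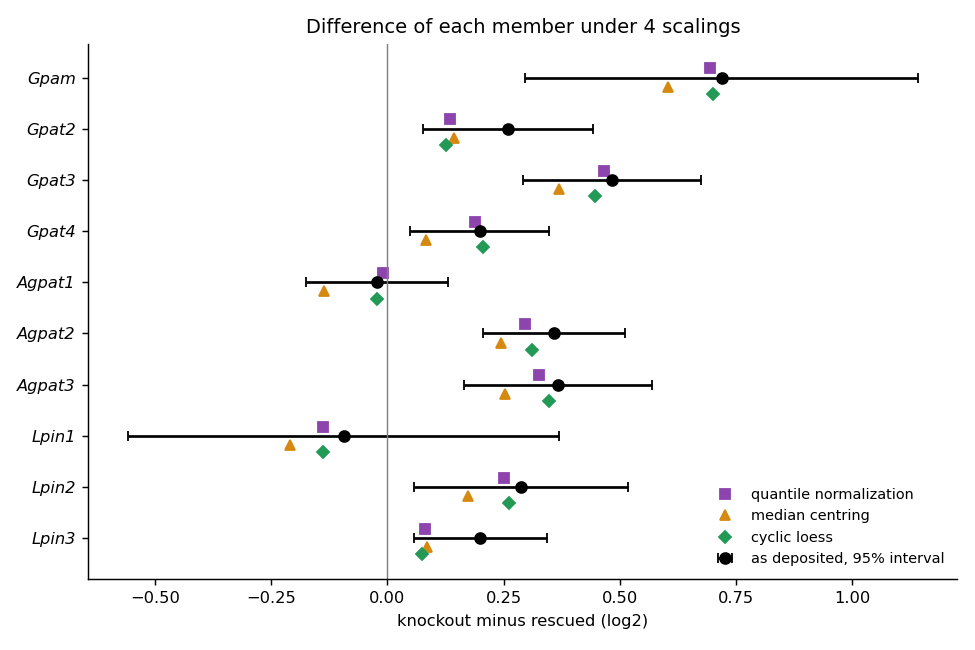
Knockout minus rescued difference in log2 intensity (x axis) for the 10 genes: black points with 95% intervals are the values as deposited, and coloured symbols are the 3 rescalings of the arrays. Gpam, Gpat3 and Agpat2 were called in all 4 scalings, Agpat3 was not called after median centring, and the points of Gpat2 and Lpin3 lie closer to 0 after each rescaling.

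The third step is served by the lipins, magnesium-dependent phosphatidate phosphatases. Lpin1 encodes the member that also acts as a coactivator of PPAR alpha with PGC-1 alpha in liver. It was at 11.74, 11.77 and 11.93 in knockout livers and at 12.15, 12.08, 12.23 and 11.16 in rescued livers. Rescued replicates 1, 2 and 3 lay above all knockout values, and rescued replicate 4 lay below all of them. The means were 11.81 ± 0.10 (SD, n = 3) and 11.91 ± 0.50 (SD, n = 4), with a difference of -0.09 (SE 0.21, 95% interval -0.56 to 0.37) and adjusted p = 0.760 in limma's test. Without rescued replicate 4 the difference was -0.34, and Lpin1 was then called lower in the knockout livers (adjusted p = 0.0408). With other single arrays left out it was between -0.15 and 0.01 and not called, so the call turns on that 1 array.

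Lpin2, the lipin with a large part in hepatic phosphatidate phosphatase activity, was at 11.51, 11.38 and 11.07 in knockout and 11.09, 10.91, 11.15 and 10.97 in rescued livers. As for Gpam, knockout replicates 1 and 2 lay above all rescued values and knockout replicate 3 lay among them. The difference was 0.29 (SE 0.10, 95% interval 0.06 to 0.52) with adjusted p = 0.0805 in limma's test. Without knockout replicate 3 it was 0.41 and was called (adjusted p = 0.0247). Lpin3, the third member of the family, was at 6.71, 6.69 and 6.61 against 6.53, 6.43, 6.45 and 6.48, a difference of 0.20 (SE 0.06) with adjusted p = 0.0598 in limma's test. It was 0.07 after cyclic loess (adjusted p = 0.450), and its levels lay at percentiles 97.7 and 97.8 of the receptor genes, so they are not shown to be above background.

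**Figure D3:**
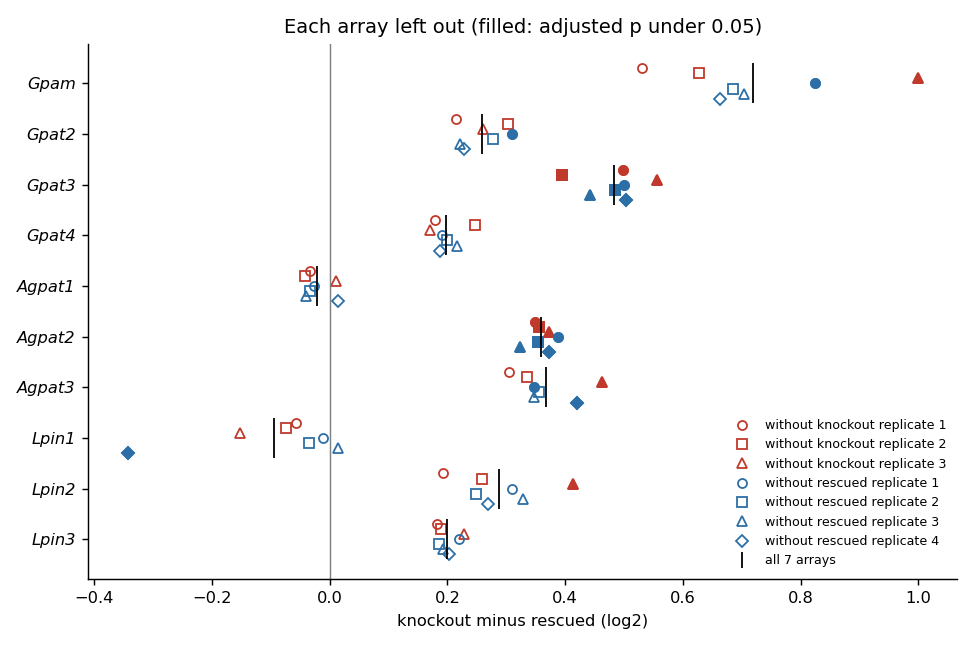
Difference in log2 intensity (x axis) of the 10 genes with each array left out in turn: red symbols omit a knockout array, blue symbols a rescued array, filled symbols have an adjusted p under 0.05 and black ticks mark the value of all 7 arrays. Gpat3 and Agpat2 are filled throughout, Gpam runs from 0.53 to 1.00, and Lpin1 is at -0.34 without rescued replicate 4.

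Within the knockout group, replicate 3 had the lowest value of the 3 arrays for 7 of the 10 genes, among them Gpam, Gpat3, Agpat2, Agpat3 and Lpin2. The same holds for 46.8% of all genes as deposited. After cyclic loess the count was 5 of 10, against 30.7% of all genes. The part of this array as a whole in the spread of Gpam and Lpin2 was not tested.

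Whether genes of the same step differed from each other was tested on the ratio of 2 probe sets of the same array, which cancels an offset of that array. The log2 ratio of Agpat2 to Agpat1 was 0.38 higher in the knockout livers, with values of 4.19, 4.16 and 4.23 against 3.91, 3.83, 3.76 and 3.74. That of Agpat3 to Agpat1 was 0.39 higher, at 3.12 ± 0.12 (SD, n = 3) against 2.73 ± 0.04 (SD, n = 4). For both ratios every knockout array lay above every rescued array, which gives the smallest p that the 35 splits of 7 arrays allow (exact two-sided permutation test, p = 0.0286, adjusted over 6 ratios p = 0.0857). The ratio of Gpat3 to Gpat4 differed by 0.28 (exact permutation p = 0.0571, adjusted p = 0.114) and that of Gpam to Gpat4 by 0.52 (exact permutation p = 0.171, adjusted p = 0.257), and both overlapped between the groups. The ratio of Lpin1 to Lpin2 differed by -0.38 (exact permutation p = 0.257) and that of Lpin3 to Lpin2 by -0.09 (exact permutation p = 0.486). None of the 6 ratios passed an adjusted p under 0.05 (before adjustment 2 had an exact p under 0.05). Complete separation of the groups, found for 2 of the 6 ratios, gave an adjusted p of 0.0857 in the exact permutation test. That value depends on how many of the ratios reach the smallest p that 7 arrays allow. With so few arrays the adjusted values neither show nor exclude unequal change within a step. With 1 array left out, the log2 ratio of Agpat2 to Agpat1 ran from 0.36 to 0.41 and that of Agpat3 to Agpat1 from 0.34 to 0.45. The others moved more: Gpam to Gpat4 ran from 0.35 without knockout replicate 1 to 0.83 without knockout replicate 3, and Gpat3 to Gpat4 from 0.15 without knockout replicate 2 to 0.39 without knockout replicate 3. The ratio of Lpin1 to Lpin2 ran from -0.61 without rescued replicate 4 to -0.25 without knockout replicate 1, and that of Lpin3 to Lpin2 from -0.18 without knockout replicate 3 to -0.011 without knockout replicate 1.

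Other genes of the pathway, taken from a list of 27 of which 24 were measured, were called higher in 7 cases and lower in 2. Their median difference was 0.07 beside 0.09 for all genes as deposited, 0.07 beside 0.0035 with quantile normalization, 0.07 beside 2.7e-05 with cyclic loess and -0.04 beside -0.025 with median centring. The median of the list was thus above that of all genes in 2 of the 4 scalings and below it in the other two. The counts were 6 and 3 after quantile normalization and after cyclic loess, and 3 and 4 after median centring. Of all genes, 9.54% were called higher and 4.85% lower as deposited, and 4.22% and 5.76% after quantile normalization. These shares were 4.09% and 5.75% after cyclic loess and 2.59% and 10.9% after median centring. In all 4 scalings 3 of the listed genes were called higher (Gpd1, Mogat2 and Cept1) and 2 lower (Agpat5 and Acsl4).

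The supply of the backbone came first. Gpd1, the cytosolic dehydrogenase that makes glycerol-3-phosphate from dihydroxyacetone phosphate, was at 12.42, 12.33 and 12.32 in knockout and 11.93, 11.86, 11.71 and 11.74 in rescued livers, 1.46-fold higher (adjusted p = 0.00212 in limma's test). The related Gpd1l differed by 0.27 (adjusted p = 0.0253 in limma's test), but it was not called after median centring (0.15) or with knockout replicate 1, knockout replicate 2, rescued replicate 2 or rescued replicate 3 left out. These were 2 of the 4 supply genes measured, and the other 2 were not called. As deposited, 9.54% of all genes were called higher and 4.85% lower.

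Of 4 listed long-chain acyl-CoA synthetase genes 2 were measured, and Acsl4, which prefers arachidonate, was called lower. Acsl4 was at 8.95, 9.02 and 9.04 in knockout and 9.75, 9.68, 9.93 and 9.93 in rescued livers, 1.76-fold lower. Its difference was -0.82 (SE 0.08, adjusted p = 0.000298 in limma's test). Acsl5, named as the other one measured, was lower on every knockout array but not called (-0.18, adjusted p = 0.111 in limma's test). After median centring Acsl5 was called lower (-0.30, adjusted p = 0.0248). Agpat5, a mitochondrial member of the AGPAT family, also fell, from 7.79, 7.73, 7.90 and 7.84 in rescued to 7.38, 7.52 and 7.41 in knockout livers, a difference of -0.38 (SE 0.07, adjusted p = 0.00983 in limma's test). Among the AGPAT family genes measured here, Agpat2 and Agpat3 were thus higher and Agpat5 lower, each without overlap between the groups.

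On the routes that leave phosphatidic acid and diacylglycerol, 4 of 6 genes of the phospholipid branch were called higher and none lower as deposited. The shares over all genes were 9.54% higher and 4.85% lower. Cept1, which makes phosphatidylcholine and phosphatidylethanolamine from diacylglycerol, was at 10.23, 10.27 and 10.24 in knockout against 9.70, 9.93, 9.79 and 9.83, 1.35-fold higher (adjusted p = 0.00564 in limma's test). The choline phosphotransferase gene Chpt1 differed by 0.31 (adjusted p = 0.0421 in limma's test), but was not called after any of the 3 rescalings (0.20 to 0.27), and with 1 array left out it was called only without knockout replicate 3 or rescued replicate 1. Cds2, which makes CDP-diacylglycerol from phosphatidic acid, differed by 0.33 and the cardiolipin synthase gene Crls1 by 0.31. Neither was called after median centring (0.21 and 0.20). Without knockout replicate 1 Cds2 was at 0.28 (adjusted p = 0.0520), and without knockout replicate 2 or rescued replicate 2 or 3 Crls1 was not called (0.24 to 0.32).

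Toward triacylglycerol, 1 of 4 genes was called as deposited, where 14.4% of all genes were called in either direction. Mogat2, which makes diacylglycerol from monoacylglycerol and so bypasses the GPAT, AGPAT and lipin steps, was at 6.77, 6.62 and 6.77 against 6.19, 6.20, 6.11 and 6.31, 1.43-fold higher (adjusted p = 0.00275 in limma's test), at percentiles 98.2 and 95.6 of the receptor genes. Among other phosphatidate phosphatases none of 3 was called as deposited. Plpp3, named after its value was seen, differed by -0.26 (adjusted p = 0.0521 in limma's test) and was called lower in each rescaling, with differences of -0.29 to -0.38. Neither subunit gene of the phosphatase that activates lipins, Ctdnep1 and its partner Cnep1r1, was called (differences of 0.04 and -0.10).

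**Figure D4:**
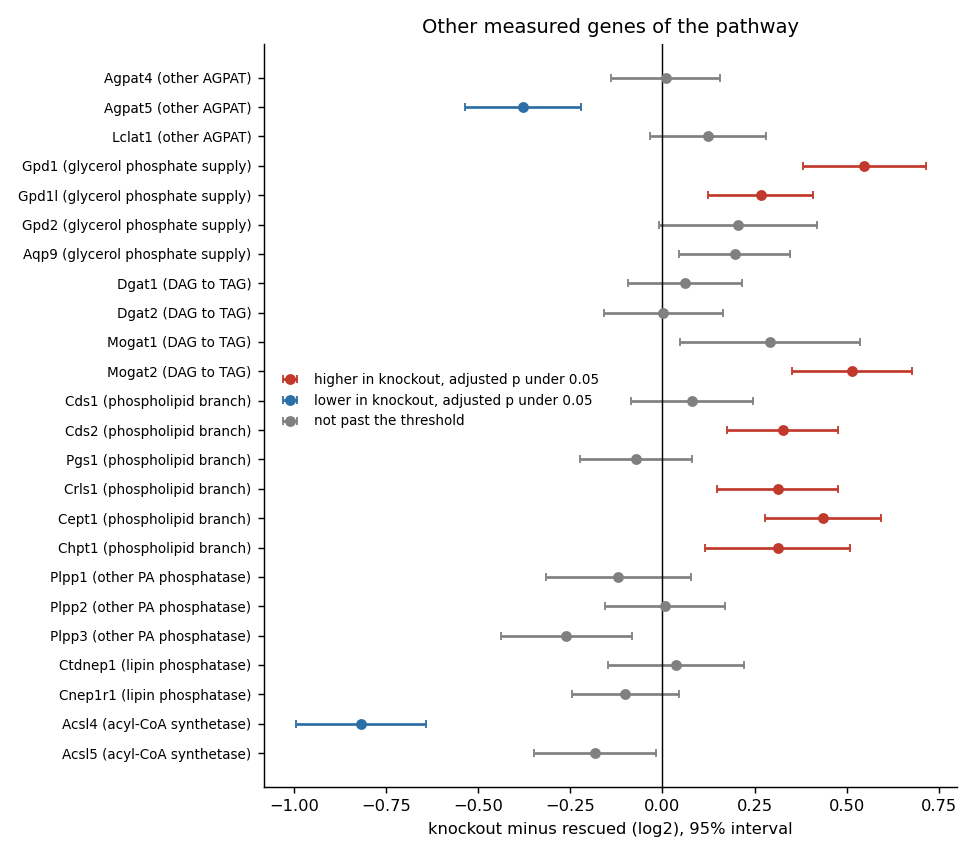
Knockout minus rescued difference in log2 intensity with 95% interval (x axis) for the 24 other measured genes of the pathway, grouped by role: red genes were called higher, blue genes lower and grey genes not called. Gpd1, Mogat2 and Cept1 lie farthest to the right, and Acsl4 at -0.82 and Agpat5 at -0.38 lie to the left.

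Among 6 transcriptional regulators known for GPAT or lipin genes, none was called in limma's test, beside 14.4% of all genes. Before adjustment 1 had a p under 0.05, beside 35.7% of all genes. That was Mlxipl, which encodes the carbohydrate response factor ChREBP, with a difference of 0.19 (adjusted p = 0.126), which ran from 0.11 without knockout replicate 1 to 0.24 without knockout replicate 2. Srebf1, which encodes the sterol regulatory factor that controls Gpam, was at 9.53, 9.50 and 9.19 in knockout and 9.67, 9.61, 9.40 and 9.58 in rescued livers, with a difference of -0.16 (95% interval -0.37 to 0.06, adjusted p = 0.262 in limma's test). With 1 array left out it ran from -0.22 without knockout replicate 1 to -0.05 without knockout replicate 3. The difference of Srebf1 was -0.15 after quantile normalization and after cyclic loess, with overlap between the groups. After median centring it was -0.27 and lower on every knockout array, but not called (adjusted p = 0.0591 in limma's test).

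The genes with the profile most like a member over the 7 arrays were taken by the root mean square difference of mean-centred log2 values among 16800 genes. For Gpat3 these were Lsm7 (0.03), Sema4a (0.05) and Gpr37l1 (0.06), and for Agpat2 they were Sstr4, Gdap1l1 and Mmp12 (0.03 each). For Lpin3 they were Mdh1, Psmb3 and Anxa3 (0.02 each). Several of these neighbours were dim: Gpr37l1 lay at 5.96 to 6.67, Gdap1l1 at 6.03 to 6.48 and Mmp12 at 5.69 to 6.22. Anxa3 lay at 6.59 to 6.84 and Sstr4 at 6.75 to 7.23. Gpat2 and Lpin3, at levels close to most of these, were within the range of genes not expected in liver. For Gpam, added after its values were seen, the nearest was Ftl1 at a larger distance of 0.11. Ftl1, a ferritin light chain gene, was at 10.28, 10.22 and 9.34 in knockout and 9.42, 9.22, 9.43 and 9.17 in rescued livers, with knockout replicate 3 low as in Gpam.

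The low value of Lpin1 on rescued replicate 4 was 0.92 below the lowest other rescued array. Only 4 of 19933 genes (0.0201%) had a gap that large on that array: Csad, Ppp4r2, Plk3 and Lpin1 itself, a list made after the value of Lpin1 was seen. Csad, the enzyme of taurine synthesis, was at 8.80 on rescued replicate 4 and at 10.09 to 10.52 on the other rescued arrays. Ppp4r2, a regulatory subunit of protein phosphatase 4, was at 7.10 against 8.19 to 8.47, and the polo-like kinase gene Plk3 was at 9.18 against 10.13 to 10.58. The array was thus not low as a whole, and its median intensity of 98.71 lay within the range of the other rescued arrays.

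**Figure D5:**
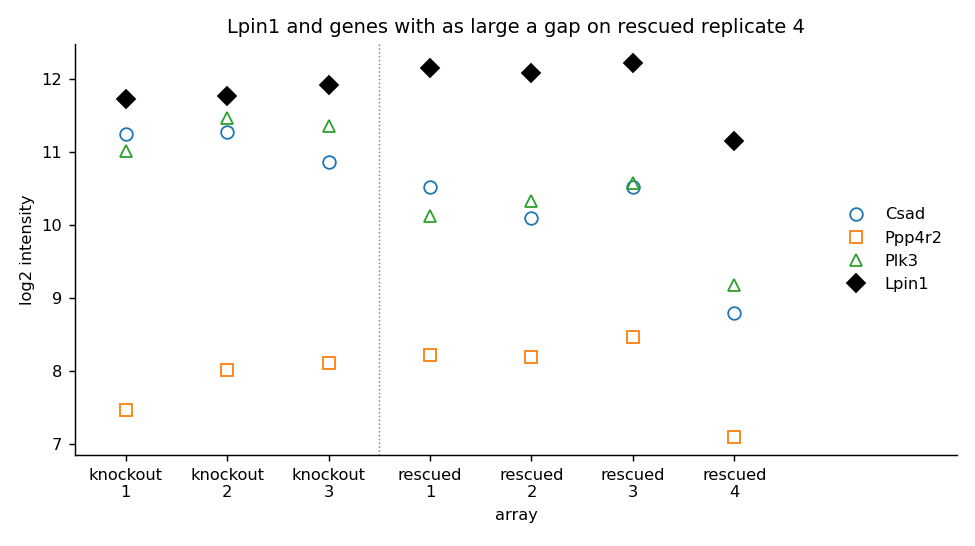
Log2 intensity (y axis) of Lpin1 (filled) and of the 3 other genes with at least as large a gap on rescued replicate 4, for each of the 7 arrays (x axis; the dotted line separates the groups). All 4 genes are lowest on rescued replicate 4, where Lpin1 is at 11.16.

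Markers of the cell types that a whole liver sample could hold were compared as well. Of 45 measured markers of 8 cell types, 2 were called higher (Lrat and Acta1) and 1 lower (Clec4g) in limma's test as deposited. Over all genes 14.4% were called. Lrat and Acta1 were not called after median centring (adjusted p = 0.141 and 0.110 in limma's test). Clec4g was not called after cyclic loess (adjusted p = 0.0562). The cholangiocyte marker Sox9, named after its value was seen, was called higher only after quantile normalization (adjusted p = 0.0459). None of 5 adipocyte markers was called (3 had a p under 0.05 before adjustment), but their summed intensity was 360.4 to 426.7 in knockout and 330.6 to 356.2 in rescued livers, without overlap. After cyclic loess these sums overlapped, at 353.3 to 406.6 and 342.8 to 358.0. The adipocyte hormone genes Adipoq and Lep lay at percentiles 54.5 and 51.7 and at 67.4 and 70.1 of the receptor genes. Fabp4 (98.9 and 98.5), Plin1 (98.2 and 98.4) and Retn (97.7 and 97.1) lay higher in that range, and Retn was higher on every knockout array (difference 0.27, adjusted p = 0.0516 in limma's test). Of 6 skeletal muscle markers 1 was called, and 5 had a p under 0.05 before adjustment, against 35.7% of all genes. Their differences ran from 0.16 to 0.32 as deposited and from 0.01 to 0.27 after cyclic loess. Their sums were 587.9 to 674.6 and 489.8 to 558.9, and stayed apart after cyclic loess (572.4 to 628.0 and 514.9 to 561.8). The 5 cholangiocyte markers summed to 532.5 to 603.4 in knockout and 463.0 to 510.6 in rescued livers, also apart after cyclic loess (528.7 to 570.0 and 473.8 to 514.3). The 5 lymphocyte markers were apart as deposited (367.1 to 378.8 and 323.8 to 346.4) and overlapped after cyclic loess (338.0 to 371.2 and 336.2 to 359.3). The sums of Kupffer and macrophage, stellate and fibroblast, and endothelial markers overlapped as deposited and after cyclic loess. The stellate and fibroblast sum is weighted to its brightest marker, Dcn, which differed by -0.08. Of those 6 markers, 4 had a p under 0.05 before adjustment in limma's test (Lrat, Col1a1, Col3a1 and Des), all higher in the knockout livers. The 6 hepatocyte markers summed to 66417 to 67922 and 64435 to 67491 as deposited, and after cyclic loess the knockout sums of 63339 to 65189 lay below the rescued sums of 65763 to 67977. Their part in the differences of the acyltransferase genes was not tested.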

How the data were processed

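Total RNA of 7 livers was hybridised to the Mouse Gene 1.0ST array of Affymetrix, as the labels state. The deposited table holds 1 linear intensity per probe set and array (27541 rows); RMA and Partek appear, per the submitters' processing notes, without versions or roles. What scaling was applied last stays unknown, and a genome build was not found in these sources. The log2 of the deposited intensity was used, without a filter. Gene symbols came from GEO's platform annotation (21631 with 1 symbol, 1317 with several, 4593 with none), and a gene was its brightest row with 1 symbol. The test was lmFit with eBayes from limma 3.58.1 (R 4.3.3), two-sided and without covariates. The fit was tested on simulated data. Arrays shared at most 3.79% of equal values. The labels call the arrays biological replicates; their number limits the precision. The labels and the table name no batch.

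The members and lists were chosen with earlier results of these data known. Named are all members, every called gene of the pathway list, the 2 regulators with the smallest p and, for the member with the smallest p of each enzyme family, the 3 nearest profiles; exceptions are said in place. Listed genes without a row of their own (Gk, Acsl1 and Acsl3 among the pathway genes) were not analysed here. Alternatives were 3 rescalings, 2 filters on dim genes, a pseudocount of 16, all rows, the mean of probe sets, weights for arrays, trend with robust spread, leaving out each array, and a replicate block. Figures were drawn with matplotlib 3.10.9.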

Additional observations from a re-analysis of the deposited data

Results flagged for a closer look

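Among the rescued arrays of 19 genes (the 10 members and 9 called genes of the pathway list), 2 had 1 array far from the other 3, by the gap to the nearest array divided by the range of the group. For Agpat3 rescued replicate 4 was high, with a ratio of 0.889, and for Lpin1 the same array was low, with a ratio of 0.862. Both passed Dixon's limit at 95% for 4 samples, which chance passes in about 1 of 20 groups. Without rescued replicate 4 the difference of Agpat3 was 0.42 (adjusted p = 0.0294 in limma's test) and that of Lpin1 -0.34 (adjusted p = 0.0408).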

How the results depend on the processing

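Gpat3 and Agpat2 kept their direction and their call in every alternative run. With single arrays left out, the number of all genes called ran from 897 to 3263 (2867 with all arrays), that of members from 2 to 5, Gpam from 0.53 to 1.00, Gpat2 from 0.22 to 0.31, Agpat1 from -0.042 to 0.014, Agpat3 from 0.30 to 0.46, Lpin1 from -0.34 to 0.01 and Lpin2 from 0.19 to 0.41. Just 2 members, Gpat3 and Agpat2, were called with knockout replicate 1, knockout replicate 2, rescued replicate 2 or rescued replicate 3 left out, when 897, 1721, 1200 and 948 of all genes were called, and 1331 genes were called without rescued replicate 4. Agpat1 changed sign without knockout replicate 3 (0.010) or rescued replicate 4 (0.014), and Lpin1 without rescued replicate 3 (0.014). Gpam was not called with all rows tested (0.72, adjusted p = 0.0511) or with trend and robust spread (0.72, adjusted p = 0.0648), nor Agpat3 after median centring (0.25). Calls were gained by Gpat2 with genes above log2 6 in 3 arrays (0.26) and without rescued replicate 1 (0.31), by Lpin2 without knockout replicate 3 (0.41), by Lpin1 without rescued replicate 4 (-0.34), and by Gpat4 (0.19) and Lpin3 (0.17) with the pseudocount. For these changes the cause was not tested. The nearest profiles of Gpam and Lpin1 were added after seeing the data. So were the values of Plpp3, Acsl5, Agpat4, Lclat1 and Sox9 under the alternatives.

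Same-numbered arrays of the groups deviated together only weakly (correlations of 0.15, 0.0028 and 0.0053), so the numbers are not shown to pair animals. With the replicate number as a block, where rescued replicate 4 has no partner and drops out, 1938 genes were called, Lpin1 was at -0.34 (adjusted p = 0.0311) and Agpat1 at 0.014. With 1 array left out, an exact permutation test of the ratios cannot go below an adjusted p of 0.05. Probe sets near the level of the receptor genes (Gpat2, Lpin3 and Mogat2) limit what can be read from their fold.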
